A study of Mus musculus with 2 samples.

Results

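The 7 sirtuins, Sirt1 to Sirt7, and 3 enzymes that handle the precursor of their cofactor, Nampt, Nmnat1 and Nnmt, were followed in control and senescent AML12 cells. These 10 genes were picked by symbol from the 35275 genes of the count table. AML12 is a mouse hepatocyte line from the liver of a male CD-1 animal of 3 months, derived from a mouse that carried a transforming growth factor alpha transgene, so that both groups share 1 line and this growth factor background. The control cells, titled Young, were untreated, and the senescent cells, titled Old, had repeated sublethal exposures to hydrogen peroxide with recovery in complete medium after each. RNA of 3 samples was pooled for each group and sequenced as 1 library, so the groups have no replicates, no p-value was computed, and each value below compares 2 libraries.

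Sirtuins are enzymes that remove acetyl and other acyl groups from lysines and consume NAD with each reaction, releasing nicotinamide. Their activity therefore depends on the supply of NAD, and in hepatocytes they act on fuel metabolism, on stress responses and on chromatin. SIRT1, SIRT6 and SIRT7 are found mainly in the nucleus, SIRT2 mainly in the cytoplasm, and SIRT3, SIRT4 and SIRT5 in mitochondria. NAMPT converts nicotinamide to nicotinamide mononucleotide, the limiting step of salvage, NMNAT1 makes NAD from that product in the nucleus, and NNMT, abundant in normal liver, methylates nicotinamide and so removes it from salvage.

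The control library held 28021941 counted reads and the senescent library 25738075. Hepatocyte markers went both ways, with at least 10 reads over both libraries for 12 of 12, a median log2 ratio (senescent over control) of 0.11, and 6 intervals above 0 and 4 below. Ahsg (7 control and 16 senescent reads) and Trf (26 and 17), which encode plasma proteins of liver, were barely read. Alb, which encodes albumin, had -3.23, Apoa1 -3.13 and Cebpa -1.44, against 0.51 for Krt8, the best-read marker, 0.41 for Apob and 0.14 for Hnf4a. Of other cell types that liver can hold, Adgre1 and Clec4f of macrophages and Col1a2 and Col3a1 of fibroblasts had 0 reads in both libraries. The endothelial list summed to 0.172 CPM in control and 0.524 in senescent cells, and the fibroblast list to 0.928 and 0.403. The macrophage list summed to 194 and 82.1 CPM, of which Cd14 made up 191 and 75.8, whereas Ptprc (27 and 76 reads, 1.68) and Csf1r (15 and 40 reads, 1.58) were higher in the senescent library. Of the bile duct genes, Krt19 (22885 control reads, log2 ratio -0.03), Sox9 (3602, 0.54) and Krt7 (3248, -1.43) were well read, and Epcam had 0 and 1 reads. Cdkn1a, which encodes the cell cycle inhibitor p21, had a log2 ratio of 0.90 (95% interval 0.86 to 0.95), whereas Cdkn2a had -1.32 (-1.60 to -1.05). Of the proliferation markers, Mki67 had -0.79 (-0.88 to -0.71), but Top2a 0.18 (0.11 to 0.25), Cdk1 0.19 (0.06 to 0.31) and Ccnb1 0.09 (-0.05 to 0.23). The part of these marker changes in the values below was not tested.

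Reads were scaled between the libraries by the TMM method, and CPM below is after that scaling unless stated. The log2 ratio is senescent over control, and its 95% interval is a Clopper-Pearson interval of the fraction of its reads that are senescent. It covers counting error only, since each group has 1 library. Reads amplified by PCR are not independent molecules, so the interval may be too narrow even for counting error. Genes are called higher or lower where the log2 ratio passed 1.5, the threshold of the study's methods, with at least 10 reads over both libraries and an interval without 0. Of all genes with that many reads, 8.31% passed, 2.71% higher and 5.60% lower. Of the 10 members, 9 had at least 10 reads, and 0 passed in either direction. At a log2 ratio of 1, 0 members passed, against 15.1% of all tested genes, 5.09% higher and 9.98% lower. At 0.5, 2 members were lower and 0 higher, against 20.4% and 14.8% (35.2% together). The median log2 ratio of the 9 members was 0.22, against -0.02 over all tested genes, and 67.5% of all tested genes had a ratio no farther from 0 than Sirt3, the member that differed most. In pooled RNA, fewer cells of a kind and less RNA per cell cannot be told apart.

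**Figure D1:**
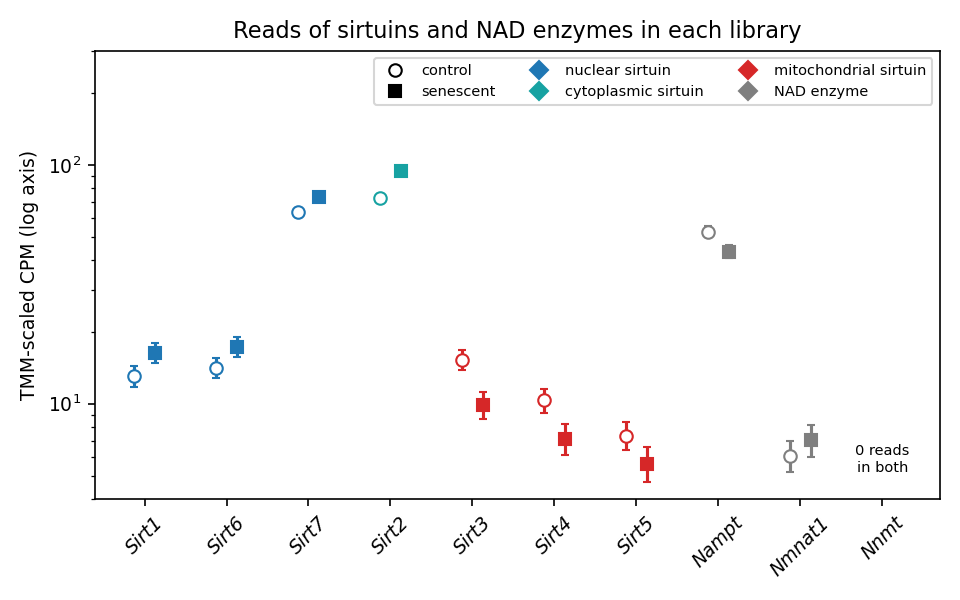
TMM-scaled CPM on a log axis for each gene in the control library (open circles) and the senescent library (filled squares), with bars for the exact 95% Poisson interval of the count and colours for the location of the protein. The 3 mitochondrial sirtuins lie lower in the senescent library and the other 4 sirtuins higher, and Nnmt had 0 reads in both.

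The mitochondrial sirtuins were the members with the lowest ratios. SIRT3 is the main deacetylase of the mitochondrial matrix, SIRT4 restrains glutamine use through glutamate dehydrogenase, and SIRT5 removes succinyl, malonyl and glutaryl groups. Sirt3 (ENSMUSG00000025486, chromosome 7 from 140863666 to 140882309 on the minus strand of GRCm38) was read 443 times in control cells and 244 times in senescent cells, or 15.2 and 9.84 CPM. Its log2 ratio of -0.63 (-0.86 to -0.40) corresponds to a 1.55-fold lower level and to percentile 19.6 of all tested genes. Sirt4 (ENSMUSG00000029524, chromosome 5 from 115478010 to 115484725, minus strand) had 300 and 176 reads, or 10.3 and 7.10 CPM. Its log2 ratio was -0.54 (-0.82 to -0.27), at percentile 22.9. Sirt5 (ENSMUSG00000054021, chromosome 13 from 43365496 to 43395203, plus strand) had 213 and 139 reads, or 7.32 and 5.60 CPM. Its log2 ratio of -0.38 (-0.71 to -0.07) lay at percentile 29.0, and its interval came closest to 0 among the 3 genes. All 3 were thus lower in the senescent library beyond counting error, by less than the threshold. Of all tested genes, 34.6% had an interval below 0.

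Reads of neighbouring or similar genes limit these values, because the use of strand in the counting is not given in the sources used here. Sirt3 shares 342 exon bases with Psmd13, a proteasome subunit gene on the opposite strand, which had 5943 and 4508 reads and a log2 ratio of -0.17 (-0.23 to -0.11). It shares 418 exon bases with Ric8a, also on the opposite strand, with 2447 and 3525 reads (0.76, interval 0.68 to 0.83). Sirt4 overlaps no other annotated gene. The longest Sirt5 transcript holds 843 bases that match Wdr31 at 97.6% identity and 467 that match Snhg14 at 96.4%. Wdr31 had 29 control and 19 senescent reads and Snhg14 had 258 and 122, fewer in the senescent library, as for Sirt5. Whether reads of these genes enter the Sirt5 counts was not tested.

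The sequences before the starts of these 3 genes are shown because the genes lay on the same side of 0, and that of Sirt1 for contrast, since it lay on the other side. Each is the 250 bases before the first start that RefSeq lists on GRCm38.p6, read along the gene's strand, with capitals where a searched motif matches. The starts of Sirt1, Sirt3 and Sirt4 are also GENCODE starts, and that of Sirt5 is not. The windows are chr7:140882310-140882559 for Sirt3, chr5:115484298-115484547 for Sirt4, chr13:43365285-43365534 for Sirt5 and chr10:63339036-63339285 for Sirt1.
Sirt3: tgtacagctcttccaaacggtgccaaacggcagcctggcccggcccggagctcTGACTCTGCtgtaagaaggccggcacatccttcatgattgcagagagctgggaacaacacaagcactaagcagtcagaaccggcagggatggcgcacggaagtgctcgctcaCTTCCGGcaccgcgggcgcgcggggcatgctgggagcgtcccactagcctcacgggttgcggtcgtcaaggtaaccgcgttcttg
Sirt4: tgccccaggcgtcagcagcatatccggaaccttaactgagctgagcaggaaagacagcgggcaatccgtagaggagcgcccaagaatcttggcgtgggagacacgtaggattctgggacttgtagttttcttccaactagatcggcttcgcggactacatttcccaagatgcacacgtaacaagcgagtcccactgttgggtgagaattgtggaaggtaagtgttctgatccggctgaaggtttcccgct
Sirt5: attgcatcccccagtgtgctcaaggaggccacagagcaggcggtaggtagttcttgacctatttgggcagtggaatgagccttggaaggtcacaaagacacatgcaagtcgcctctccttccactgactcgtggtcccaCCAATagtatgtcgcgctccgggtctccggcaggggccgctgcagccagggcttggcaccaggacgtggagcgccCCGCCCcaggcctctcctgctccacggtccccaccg
Sirt1: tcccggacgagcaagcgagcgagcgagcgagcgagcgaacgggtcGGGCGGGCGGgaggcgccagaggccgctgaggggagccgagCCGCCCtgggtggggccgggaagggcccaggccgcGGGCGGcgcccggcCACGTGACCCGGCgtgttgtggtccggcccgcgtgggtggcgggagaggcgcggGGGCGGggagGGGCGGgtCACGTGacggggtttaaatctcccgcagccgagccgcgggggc
The motifs were searched on both strands and could overlap. They were the TATA box TATAAA, the CCAAT box CCAAT, the GC box GGGCGG, the E-box CACGTG that clock and MYC proteins bind, the ETS core CCGGAAG, the estrogen-related receptor element TCAAGGTCA, the cyclic AMP element TGACGTCA, the NRF1 site and the antioxidant element core TGACNNNGC. The Sirt3 window holds 1 ETS core, a motif found in 6.91% of all 32851 windows of this length and for 4 of 9 members. It also holds 1 antioxidant element core, found in 10.2% of windows and for 2 of 9 members. The Sirt4 window holds 0 matches to the 9 motifs. The Sirt5 window holds a CCAAT box and a GC box, found in 33.8% and 32.7% of windows. No searched motif was thus present in all 3 windows. The Sirt1 window holds 2 E-boxes, found in 6.02% of windows, the first of which overlaps an antioxidant element core. It also holds several GC boxes, a motif found for 8 of 9 members. Its 39 CpG dinucleotides compare with 21 for Sirt3, 14 for Sirt4, 13 for Sirt5 and a median of 6 over all windows. In this the Sirt1 window does not stand for the other sirtuins with ratios above 0. Their windows, not shown, held 13 CpG dinucleotides for Sirt2, 12 for Sirt7, and 13 and 20 for Sirt6. The Sirt2 window holds CCAAT boxes and a GC box, the motifs of the Sirt5 window. A second Sirt3 start, not shown, has a CCAAT box and GC boxes in its window. Of 12 windows for 9 members, that of Sirt1 was the 1 with an E-box, and 0 held a TATA box, an estrogen-related receptor element or a cyclic AMP element.

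The nuclear and cytoplasmic sirtuins all had ratios above 0. SIRT1 deacetylates transcription factors and coactivators of fasting metabolism, SIRT6 acts on histone H3 at telomeres and glycolytic genes, and SIRT7 sits in the nucleolus and acts on ribosomal DNA. Sirt1 (ENSMUSG00000020063, chromosome 10 from 63319005 to 63381704) was read 378 times in control cells and 405 times in senescent cells, or 12.9985 and 16.3 CPM, with a log2 ratio of 0.33 (0.12 to 0.54). Sirt6 (ENSMUSG00000034748, chromosome 10 from 81621785 to 81627797) had 411 and 427 reads, or 14.1 and 17.2 CPM (0.28, interval 0.09 to 0.48). Sirt7 (ENSMUSG00000025138, chromosome 11 from 120618372 to 120625240) had 1838 and 1825 reads, or 63.2 and 73.6 CPM (0.22, interval 0.13 to 0.31). Its unscaled reads were nearly the same, with more reads in all in the control library. SIRT2 deacetylates tubulin and gluconeogenic enzymes in the cytoplasm. Sirt2 (ENSMUSG00000015149, chromosome 7 from 28766735 to 28788661) had 2111 and 2328 reads, or 72.6 and 93.9 CPM, with the highest ratio of the members, 0.37 (0.29 to 0.46), at percentile 75.9. All 4 intervals lay above 0 with TMM scaling, as did those of 34.0% of all tested genes. With total-count scaling the ratio of Sirt6 was 0.18 and its interval included 0. Sirt7 shares 124 exon bases with Mafg on the same strand (log2 ratio 0.17, interval 0.09 to 0.24), and Sirt2 shares 42 with Nfkbib on the opposite strand (-0.45, interval -0.55 to -0.35).

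**Figure D2:**
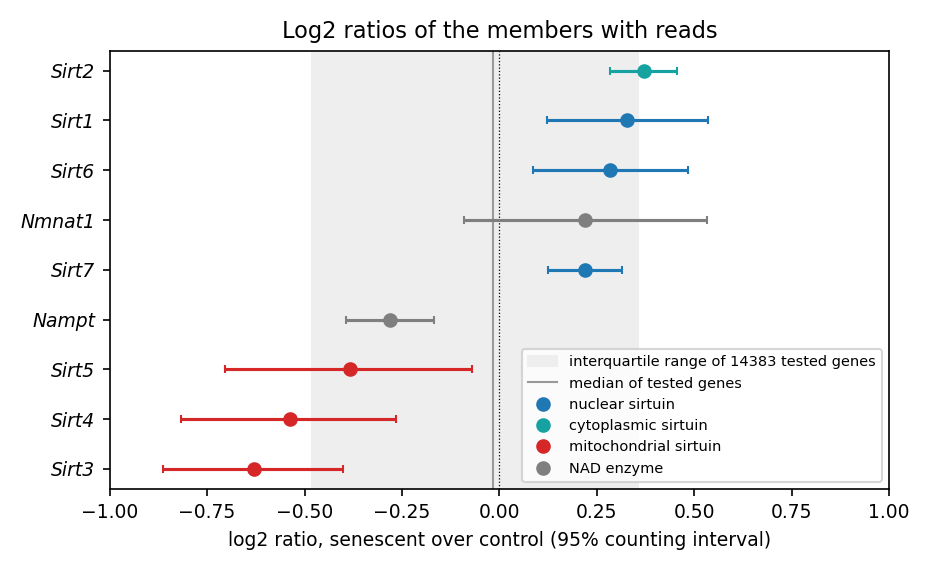
Log2 ratios of senescent over control with 95% counting intervals for the 9 members with reads, the grey band marking the interquartile range of all tested genes and the grey line their median of -0.02. Sirt3 and Sirt4 lie below the band at -0.63 and -0.54, Sirt2 lies just above it at 0.37, and the interval of Nmnat1 includes 0.

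The sirtuins thus parted by the location of their proteins. The 3 mitochondrial sirtuins summed to 956 control and 559 senescent reads, or 32.9 and 22.5 CPM, with a log2 ratio of -0.54 (-0.70 to -0.39). The other 4 sirtuins summed to 4738 and 4985, or 163 and 201 CPM, with a log2 ratio of 0.30 (0.25 to 0.36). The difference between these ratios does not depend on the scaling between libraries and was -0.85 (exact interval -1.01 to -0.68). Compared gene by gene, the intervals of the differences left out 0 in 12 of 12 pairs of a mitochondrial and another sirtuin. The differences ran from -0.61 for Sirt5 against Sirt7 down to that for Sirt3 against Sirt2 (exact interval -1.25 to -0.76). Their signs were fixed by the ratios given above, so the count of pairs adds no support. These intervals cover counting error only, and the pairs share genes and are not independent.

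In reads per kilobase of exon, the mitochondrial sirtuins made up 19.1% of the summed sirtuin level in control cells and 11.6% in senescent cells. As a share of sirtuin reads, they made up 16.8% (exact 95% binomial interval 15.8 to 17.8) of 5694 reads and 10.1% (9.30 to 10.9) of 5544. Sirt2 went from 34.1% to 39.1% of the level and the nuclear sirtuins from 46.8% to 49.3%. With the longest transcript in place of all exons as the length, the mitochondrial share was 17.4% and 10.5%. The sum of all 7 sirtuins had a log2 ratio of 0.19 (0.14 to 0.24).

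**Figure D3:**
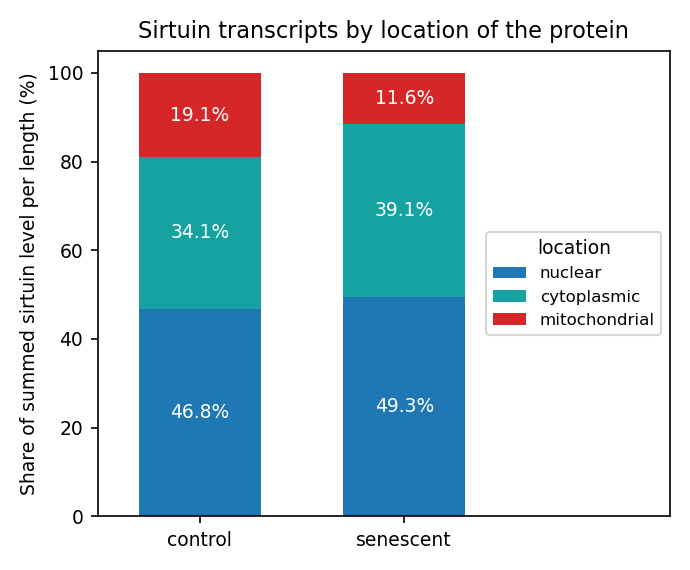
Share of the summed sirtuin level per exon length, in percent, held by the nuclear (Sirt1, Sirt6, Sirt7), cytoplasmic (Sirt2) and mitochondrial (Sirt3, Sirt4, Sirt5) sirtuins, with 1 stacked bar per library. The mitochondrial part is 19.1% in the control and 11.6% in the senescent bar.

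Nampt (ENSMUSG00000020572, chromosome 12 from 32819545 to 32853349), the rate-limiting enzyme of salvage, was read 1528 times in control cells and 1073 times in senescent cells, or 52.5 and 43.3 CPM. Its log2 ratio of -0.28 (-0.39 to -0.17) was below 0 beyond counting error and lay at percentile 34.1 of all tested genes. Nmnat1 (ENSMUSG00000028992, chromosome 4 from 149467572 to 149485202) had 175 and 174 reads, or 6.02 and 7.02 CPM. Its log2 ratio was 0.22 (-0.09 to 0.53), so the depth did not resolve any difference. The ratio of Nampt minus that of Nmnat1 was -0.50 (-0.83 to -0.17), and minus that of Sirt1 -0.61 (-0.85 to -0.37), which again does not depend on scaling. Nnmt (ENSMUSG00000032271, chromosome 9 from 48591877 to 48605153) had 0 reads in both libraries. A count of 0 allows up to 3 reads, or 0.107 CPM of unscaled control and 0.117 of unscaled senescent reads, so Nnmt transcripts were not detected in this hepatocyte line with or without peroxide, and no ratio was computed.

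The order of levels per exon kilobase was led by Sirt2, Sirt7, Nampt and Sirt6 in both libraries. In the control these had 14.4, 12.3, 10.4 and 5.07 RPKM, computed here from the TMM-scaled CPM, and in the senescent library 18.6, 14.3, 8.56 and 6.18. In the control, Sirt6 and Sirt4 (4.30), Sirt3 (2.55) and Sirt1 (2.44), and Sirt1 and Nmnat1 (1.98) did not differ beyond their counting intervals, and Sirt5 was lowest of the genes with reads at 1.20. In the senescent library, Sirt1 (3.06) had moved from rank 7 to rank 5 and Sirt3 (1.65) from rank 6 to rank 8, while Sirt1 and Sirt4 (2.96), and Sirt4 and Nmnat1 (2.31), did not differ beyond their counting intervals. With the longest transcript as the length, Sirt2, Sirt7, Nampt and Sirt6 kept their ranks in both libraries, and over all 9 genes 6 of the control ranks and 5 of the senescent ranks were the same. By that length Nmnat1, and not Sirt5, was lowest in the control.

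With 2 libraries the pattern of a gene is its ratio alone, so no gene can be named as most like a member. As a measure of this, 2082 of the tested genes (14.5%) had a ratio inside the interval of Sirt3, and 1300 (9.04%) inside that of Sirt2.

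The other genes of NAD metabolism were taken from 7 lists with 58 genes, of which 57 were in the table and 47 had at least 10 reads. Their median log2 ratio was -0.28, with 3 genes higher (6.38%) and 5 lower (10.6%) past 1.5, beside 2.71% and 5.60% of all tested genes. All 3 higher genes had few reads and belong to nicotinamide clearance and the methyl donor cycle. Cyp2e1 had 0 and 50 reads, at least 19.5-fold higher, and Aox3, an aldehyde oxidase, 0 and 12, at least 4.69-fold higher. Mat1a, the S-adenosylmethionine synthetase of adult liver, went from 5 to 26 reads (2.38, interval 1.20 to 4.35). In the same list Gnmt, which consumes S-adenosylmethionine, was lower, with 62 and 15 reads (-1.76, interval -2.74 to -0.99), a call lost at an assumed coefficient of variation of 0.4. Ahcy, which clears S-adenosylhomocysteine and was the best-read gene there, went from 15084 to 8896 (-0.53, interval -0.57 to -0.49).

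Of 8 tested genes listed for the other routes to NAD, 8 had ratios below 0 and 6 had intervals below 0, beside 51.1% and 34.6% of all tested genes. The intervals of Nt5e (39 and 24 reads, -0.46, interval -1.27 to 0.30) and Acmsd (9 and 5 reads, -0.54, interval -2.54 to 1.11) included 0. Acmsd encodes a branch that leads away from NAD, so its ratio does not speak for lower synthesis. Nmnat3, the mitochondrial counterpart of Nmnat1, had 1480 and 673 reads (-0.91, interval -1.04 to -0.77), the most reads of the other salvage genes. Nmnat2 had only 34 and 13 reads (-1.10, interval -2.20 to -0.20). Of the nicotinamide riboside kinases, Nmrk1 had 393 and 229 reads (-0.55, interval -0.79 to -0.31) and Nmrk2 had 0 in both. The 4 tested genes of this list had a median of -0.73. In the Preiss-Handler route from nicotinic acid, Naprt, its entry enzyme, had 535 and 196 reads (-1.22, interval -1.46 to -0.98), past a log2 ratio of 1 as were 9.98% of all tested genes on the lower side. Nadsyn1, the last enzyme of the route, had 651 and 435 (-0.35, interval -0.53 to -0.17). The ratio of Nampt lay above that of Naprt by 0.94 (0.67 to 1.21). The de novo route from tryptophan was near absent, with 6 of 9 genes at 3 or fewer reads in both libraries, Tdo2 and Qprt among them. Its gene with the most reads was Afmid, with 131 and 83 (-0.42, interval -0.84 to -0.02).

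**Figure D4:**
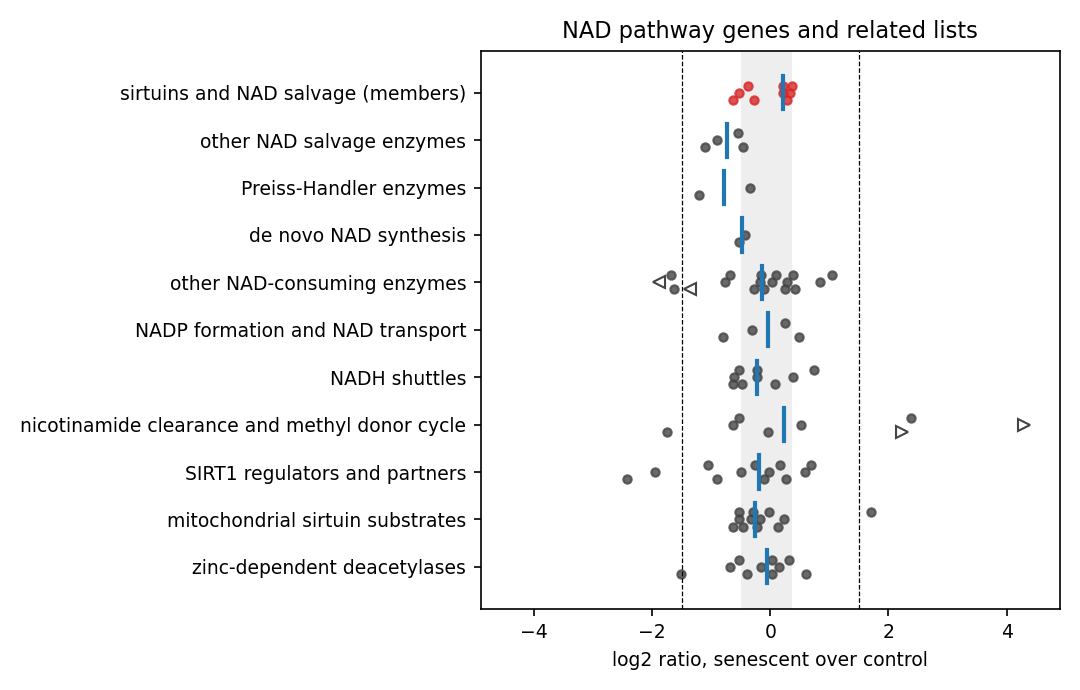
Log2 ratios of senescent over control for each tested gene (dots) of the members and of 10 related lists, with the median of each list as a blue line, the interquartile range of all tested genes as a grey band and the threshold of 1.5 as dashed lines. Open triangles mark lower bounds for genes with 3 or fewer reads in a library, and the 9 members all lie between -0.63 and 0.37.

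Among the other enzymes that consume NAD, 18 of 18 were tested, 0 were higher and 4 were lower past 1.5, beside 2.71% and 5.60% of all tested genes, and the median was -0.14. Parp9 and Parp14 encode interferon-induced ADP-ribosyltransferases. Parp9 went from 783 to 214 reads (-1.64, interval -1.87 to -1.42) and Parp14 from 569 to 150 (-1.69, interval -1.96 to -1.43). Bst1 (13 and 2 reads) and Sarm1 (9 and 1), both NAD glycohydrolases, were at least 3.70-fold and 2.56-fold lower. The bound of Sarm1 alone lies short of the threshold, which it passed by its fitted ratio. The calls of Bst1 and Sarm1 were lost with at least 100 reads, a prior count of 5 or an assumed coefficient of variation of 0.4. Tiparp, an ADP-ribosyltransferase induced by the aryl hydrocarbon receptor, went from 732 to 1293 reads (1.05, interval 0.92 to 1.18). Parp1, the main consumer of NAD after DNA damage, had 3936 and 2976 reads (-0.17, interval -0.24 to -0.10), and the best-read gene of the list was Tnks2, at 16098 and 18389 (0.42, interval 0.39 to 0.45). Cd38, an NAD glycohydrolase best known from immune cells, had 44 and 49 reads (0.38, interval -0.23 to 1.01), so the depth did not resolve any difference.

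Mitochondrial enzymes and related enzymes elsewhere in the cell were compared in pairs, chosen after the values were seen. The ratio of Nmnat3 minus that of Nmnat1 was -1.13 (-1.47 to -0.79). The mitochondrial NAD kinase Nadk2 had 864 and 421 reads (-0.81, interval -0.98 to -0.64) and the cytosolic Nadk 4594 and 5480 (0.48, interval 0.43 to 0.54), a difference of -1.29 (-1.47 to -1.11). The aspartate aminotransferases Got2 and Got1 differed by -0.61 (-0.71 to -0.52). The malate dehydrogenases Mdh2 and Mdh1 differed the other way, by 0.60 (0.53 to 0.67). So did the glycerol-3-phosphate dehydrogenases Gpd2 and Gpd1, by 1.36 (1.27 to 1.45), although these do not run the same reaction, since GPD2 is an FAD-linked enzyme of the inner membrane and GPD1 an NAD-linked enzyme of the cytosol. A lower ratio of the mitochondrial enzyme was therefore seen for the sirtuins, Nmnat3 against Nmnat1, NAD kinase and aspartate aminotransferase and not for these dehydrogenases. Nmnat2, which was not paired, had a ratio of -1.10 (-2.20 to -0.20), so Nmnat3 was not the lowest of the NMNAT genes. Of the 4 tested genes of NADP formation and NAD transport and the 9 of the NADH shuttles, 0 passed a log2 ratio of 1, against 15.1% of all tested genes. The medians of these lists were -0.03 and -0.23. Slc25a51, the carrier of NAD into mitochondria, had 1326 and 1344 reads (0.25, interval 0.14 to 0.36).

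**Figure D5:**
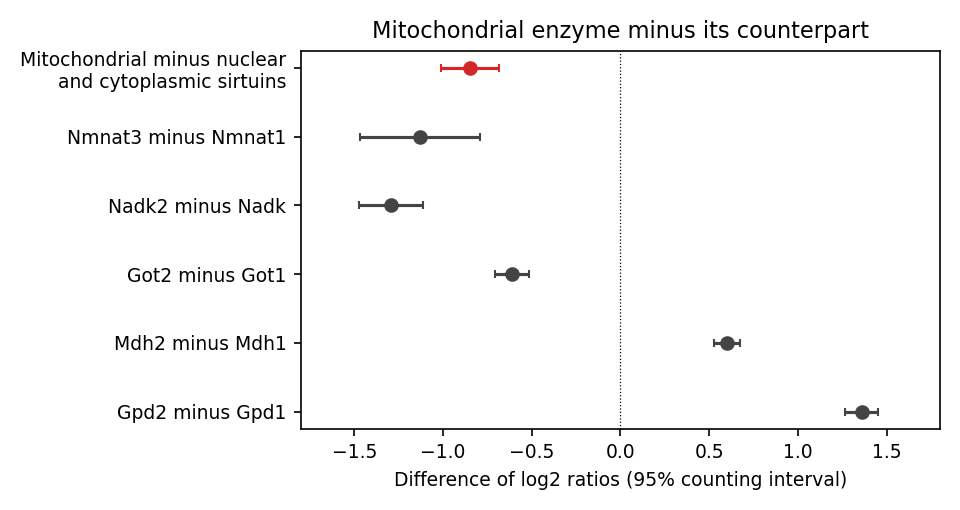
Difference of log2 ratios (senescent over control) between the mitochondrial enzyme and the related enzyme elsewhere in the cell, with exact 95% intervals, for the summed sirtuins (red) and 5 enzyme pairs (grey). The sirtuins (-0.85), Nmnat3, Nadk2 and Got2 lie below 0, and Mdh2 (0.60) and Gpd2 (1.36) above it.

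Of 13 regulators and partners of SIRT1, 12 were tested, 0 were higher and 2 lower past 1.5, beside the same 2.71% and 5.60%, and the median was -0.18. Ppargc1a, the coactivator PGC-1 alpha that SIRT1 deacetylates, had 105 and 16 reads (-2.42, interval -3.34 to -1.72). Per2, a clock gene, had 623 and 136 reads (-1.96, interval -2.24 to -1.70), and Ppara, the fatty acid receptor, 1062 and 438 (-1.05, interval -1.21 to -0.89). The clock activators, which drive Nampt in liver, went opposite ways, with 0.69 (0.60 to 0.78) for Clock and -0.90 (-1.11 to -0.69) for Arntl. Ccar2, an inhibitor of SIRT1, had 2949 and 2343 reads (-0.10, interval -0.18 to -0.02), and Trp53, a substrate and the gene of the list with the most reads, 5364 and 5494 (0.26, interval 0.21 to 0.32).

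Of the 12 genes for substrates of the mitochondrial sirtuins that are reported here, 12 were tested, and 8 had intervals below 0 and 3 above, beside 34.6% and 34.0% of all tested genes, with a median of -0.26. Cps1, the urea cycle enzyme on which SIRT5 acts, had 19 and 55 reads (1.71, interval 0.99 to 2.60) and was the 1 gene higher past the threshold, beside 2.71% of all tested genes. That call was lost at an assumed coefficient of variation of 0.4. Glud1, the SIRT4 substrate with the most reads of the list, had 18769 and 13115 (-0.29, interval -0.32 to -0.26). Idh2 and Sod2, deacetylated by SIRT3, had ratios of -0.53 (-0.59 to -0.48) and -0.33 (-0.42 to -0.23).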

How the data were processed

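RNAseq was performed on poly(A) RNA of control and senescent AML12 cells, 1 library per group from 3 pooled samples. The authors deposited a count of reads per gene for each library, not normalized, by Ensembl identifier. The submitters' processing notes name mm10, CASAVA, STAR, DESeq2 and edgeR, and the annotation and use of strand are not given in the sources used here. Columns were assigned to samples by the initials of the titles Old and Young. Symbols, exons and positions came from GENCODE M21 on GRCm38, the same build as mm10, and 97.8% of 35275 genes had a symbol.

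Counts were scaled by TMM with edgeR 4.0.16 in R 4.3.3 (control factor 1.04, senescent factor 0.964). Log2 ratios used a prior count of 1 in proportion to library size and Clopper-Pearson intervals of 95% (Python 3.11.15, scipy 1.17.1), and differences between ratios used exact conditional intervals of the odds ratio. Levels per length used all annotated exons of a gene. No test was made, since there was 1 library per group. Where 1 library held at most 3 reads of a gene, its fold is a lower bound. Shared sequence was searched with blastn 2.17.0, at 95% identity over at least 300 bases. Promoter windows were taken from RefSeq for GRCm38.p6. The method was tested on simulated counts that varied by counting error only and held planted changes larger than those of the members. That test therefore does not cover variation between replicates or the recovery of changes as small as those reported here.

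The members and lists were chosen with earlier results of these data known. All 10 members are named, and of each pathway list the genes past a log2 ratio of 1 (or, with none, the 2 farthest from 0 with at least 100 reads), the gene with the most reads, and genes that overlap or resemble a member. Marker lists are given by counts and by defining genes. Other list genes, among them Nadsyn1, Nmrk1, Nmrk2, Afmid, Parp1, Cd38, Slc25a51, Clock, Ccar2, Idh2 and Sod2, were chosen for their roles after their values were seen. In all, 1 gene of the list of mitochondrial sirtuin substrates is not reported here and was left out of its counts, median and plot. Pnp is listed without a value, since its symbol matched no row. Alternatives were total-count, DESeq2 1.42.0 and upper-quartile scaling, at least 1 or 100 reads, prior counts of 0.125 and 5, thresholds of 1 and 0.5, intervals widened for a coefficient of variation of 0.1 or 0.4, shares by the longest transcript, and, added after seeing the data, levels by the longest transcript and ratios centred on the median of tested genes.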

Additional observations from a re-analysis of the deposited data

How the results depend on the processing

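The sign of all 9 ratios of members with reads was the same under each scaling, filter and prior count and after centring on the median of tested genes. Total-count scaling moved the median of all tested genes from -0.02 to -0.12 and brought Sirt2 to 0.26 and Sirt7 to 0.11, and Sirt3 ranged from -0.74 to -0.61 over these settings. The interval of Sirt6 included 0 with total-count scaling. Variation between replicates was not measured, and intervals widened for an assumed coefficient of variation of 0.1 left out 0 for 2 of 9 members, Sirt3 and Sirt4, and for 0 of 9 at 0.4. At a threshold of 0.5 the same 2 genes, Sirt3 and Sirt4, were lower, and 7 genes of the NAD lists were higher and 17 lower, with 2135 higher and 2933 lower among all genes, while a threshold of 1 gave 732 and 1435. With at least 100 reads, 141 of all tested genes were higher and 395 lower, and in the NAD lists 0 and 2. A prior count of 5 left 259 higher genes in all and 3 lower in the NAD lists, and a coefficient of variation of 0.4 left 243 and 2. With the longest transcript as the length, the nuclear, cytoplasmic and mitochondrial shares were 38.3%, 44.2% and 17.4% in the control and 39.7%, 49.9% and 10.5% in the senescent library, and 5 of 9 senescent ranks were the same. The call of Hdac5 was lost after centring, and those of Hdac5, Cps1, Gnmt, Ptprc and Csf1r at a coefficient of variation of 0.4. No paired analysis was possible because each group has 1 library. Depth limits Nmnat1 and Nnmt.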

Other observations

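The zinc-dependent histone deacetylases, which remove acetyl groups without NAD, were read beside the sirtuins. Of 11, 10 were tested, with a median log2 ratio of -0.06. The sirtuins had no common direction to set beside this, with a summed ratio of -0.54 for the mitochondrial ones and 0.30 for the other 4. Hdac5, a class IIa enzyme that represses transcription with MEF2, was lower past 1.5, from 2181 to 652 reads (-1.51, interval -1.64 to -1.39), as were 5.60% of all tested genes. That call was lost after centring on the median of tested genes and at an assumed coefficient of variation of 0.4. Hdac4, of the same class, had 910 and 1183 reads (0.61, interval 0.48 to 0.73). Hdac2 had the most reads, 3863 and 3348 (0.02, interval -0.04 to 0.09), and Hdac9 had 0 in both libraries.

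Several members start close to a gene on the opposite strand. The starts of Sirt3 and Psmd13 lie 341 bases apart and those of Sirt2 and Nfkbib 777, and these are the genes that share exon bases as given above. The starts of Nmnat1 and Lzic lie 27 bases apart, and Lzic had 517 and 681 reads (0.63, interval 0.46 to 0.79) where Nmnat1 had 175 and 174. The outermost GENCODE start of Sirt1, at 63381704, and that of Dnajc12, a gene of the DnaJ cochaperone family, lie 739 bases apart. The Sirt1 window printed above, chr10:63339036-63339285, belongs to another start inside the gene and is not next to Dnajc12. Dnajc12 was lower past the threshold, with 274 and 60 reads (-1.95, interval -2.39 to -1.55), where Sirt1 had 0.33. The starts of Sirt6 and Ankrd24 lie 743 bases apart, with 193 and 168 reads for Ankrd24 (0.03, interval -0.28 to 0.34).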
